A study of Mus musculus with 6 samples.

Results

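Wnt ligands, their receptors and their secreted antagonists were compared between normal stomach and Yap-activated gastric cancer of mice. The set holds the 43 genes of the deposited table whose symbols belong to the Wnt, Frizzled (Fzd), secreted Frizzled-related (Sfrp) and Dickkopf (Dkk) families, or are Lrp5, Lrp6, Ror1, Ror2, Ryk, Wif1 or Frzb, out of 21526 genes in all. By role they are 18 ligands, 10 Frizzled receptors, 5 co-receptors or alternative receptors and 10 secreted antagonists. The rule uses gene names alone, and it was set with earlier results of these data known. RNA came from epithelial cells released from the gastric corpus, the acid-secreting main body of the stomach, in 3 libraries from wild-type mice (Normal) and 3 libraries from mice of the genotype CluCreERT2;R26rtTA;HA-Yap+ (Yap-activated). Per the labels, mice of each group received 2 mg tamoxifen daily for 5 days, which activates CreERT2, and ended on 14 days of doxycycline food, which activates rtTA. The wild-type controls lack the CreERT2 and rtTA alleles, so any effect of those alleles cannot be told apart from that of Yap. The labels used here name no strain, age or form of Yap in the transgene.

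Wnt proteins are secreted, lipid-modified ligands. In the route through beta-catenin a ligand joins a Frizzled receptor to Lrp5 or Lrp6, which stops the breakdown of beta-catenin and lets it act on genes with TCF and LEF factors. Ror1, Ror2 and Ryk take part in routes that do not need beta-catenin, of which Wnt5a is the best known ligand. Sfrp proteins, Frzb and Wif1 bind the ligands outside the cell, while Dkk1, Dkk2 and Dkk4 act on Lrp5 and Lrp6. In the stomach, Wnt signals help maintain the dividing cells of the glands, and part of the ligand supply comes from the cells beneath the epithelium.

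Library totals ran from 25580734 to 48440033 counts. Levels are given as CPM, counts divided by the TMM-scaled library size, and differences as log2 fold changes of Yap-activated over Normal with adjusted p-values from edgeR's quasi-likelihood test (Benjamini-Hochberg, threshold 0.05). The labels do not say that libraries came from separate mice, so these p-values measure only the spread between libraries. Markers of parietal cells, the acid-secreting cells of the corpus, summed to between 21330 and 29030 CPM in Normal and between 24.9 and 34.7 CPM in Yap-activated libraries. The 4 general epithelial markers (Epcam, Cdh1, Krt8 and Krt18) summed to between 3450 and 4236 CPM in Normal and between 7348 and 8218 CPM in Yap-activated libraries.

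Promoter sequences are shown for 4 members that carry the contrasts described below: Wnt7a, a ligand that went from 4 counts in all Normal libraries to 3453 in the Yap-activated ones, Fzd4, the receptor with the largest fall, and the related receptors Ror2 and Ror1, which moved in opposite directions. Each line is the 250 bases before the RefSeq start site (GRCm38.p6), 5′ to 3′ on the strand of the gene, and capitals mark a match to one of the 3 motifs searched on each strand: GGAATG (the core bound by TEAD, the DNA-binding partner of Yap), CTTTGA (a TCF/LEF core) and TGANTCA (an AP-1 site). The windows are chr6:91411354-91411603 (minus strand), chr7:89404116-89404365 (plus), chr13:53286125-53286374 (minus) and chr4:100095541-100095790 (plus).
Wnt7a: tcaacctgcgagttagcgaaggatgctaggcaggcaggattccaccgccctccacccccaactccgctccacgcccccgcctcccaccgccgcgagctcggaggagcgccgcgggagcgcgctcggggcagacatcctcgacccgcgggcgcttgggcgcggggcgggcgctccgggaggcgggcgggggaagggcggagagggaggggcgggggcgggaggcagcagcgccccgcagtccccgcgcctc
Fzd4: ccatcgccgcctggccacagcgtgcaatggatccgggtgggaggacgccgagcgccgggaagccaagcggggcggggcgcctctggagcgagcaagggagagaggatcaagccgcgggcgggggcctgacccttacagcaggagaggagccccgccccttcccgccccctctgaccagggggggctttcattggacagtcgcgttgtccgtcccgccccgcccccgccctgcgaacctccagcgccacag
Ror2: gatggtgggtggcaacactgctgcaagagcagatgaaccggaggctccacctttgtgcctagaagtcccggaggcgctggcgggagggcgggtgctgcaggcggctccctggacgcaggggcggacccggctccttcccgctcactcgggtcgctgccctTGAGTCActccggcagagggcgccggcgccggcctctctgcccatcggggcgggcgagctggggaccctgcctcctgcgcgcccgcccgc
Ror1: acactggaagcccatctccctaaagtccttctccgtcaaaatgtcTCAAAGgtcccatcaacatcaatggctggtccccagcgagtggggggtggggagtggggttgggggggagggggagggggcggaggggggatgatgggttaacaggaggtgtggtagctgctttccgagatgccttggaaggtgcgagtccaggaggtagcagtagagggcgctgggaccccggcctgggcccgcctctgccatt
The Wnt7a and Fzd4 windows held none of these letters, Ror2 had an AP-1 match that starts 90 bases before the start site, and Ror1 had a TCF/LEF match 205 bases before it.

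RefSeq windows were found for 29 of the 43 members, 32 windows in all because some genes have several start sites. Of the 14 members that rose past the threshold, 8 had a window. Wnt7b, Wnt10a, Wnt5a, Fzd2, Fzd6 and Lrp5 had none, so the counts below do not cover them. GGAATG was in 0 of the 32 windows of these 29 genes, against 12.6% of all 32841 windows of this length. CTTTGA was in those of 6 of the 29 genes and in 13.8% of all windows. TGANTCA was in those of 2 of the 29 genes, Ror2 and Wnt5b, and in 6.75% of all windows. For these 2 motifs genes stand beside windows, and a gene with several windows has more chances of a match, so the shares are not like for like. These matches are letters in a short stretch, and a stretch without them says nothing about binding elsewhere. The members' windows had a median GC content of 67.4% and a median of 22 CpG dinucleotides, against 52.4% and 6 over all windows.

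Of the 43 members, 32 had enough counts to be tested. Among these, 14 rose and 8 fell with Yap activation, and 10 did not pass the threshold. The share called was 68.8%, where 59.5% of all 14600 genes tested were called, 29.8% higher and 29.7% lower. Called changes of over 4-fold were found in 9 members, and in 15% of all genes tested. The groups did not overlap in 23 members, against 67.6% of all genes tested. The Yap-activated libraries were all above in 13 members (33.2% of all genes) and all below in 10 (34.4%). The median log2 fold change of the members was 0.31 and that of all genes 0.01. Because each library pools every cell of a preparation, fewer cells of a type and less RNA per cell cannot be told apart in any of these changes.

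Among the 18 ligands reported, Wnt7a and Wnt7b came up from near 0 to become the highest per length, Wnt10a appeared, Wnt5a and Wnt9a rose to a smaller extent, and Wnt16, Wnt5b and Wnt2b fell. Of 11 ligands tested, 5 rose, 3 fell and 3 did not pass, with a median log2 fold change of 0.75. Taking Wnt10a at the ratio to the floor given below could not change this median, since Wnt10a stays above it.

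Wnt7a and Wnt7b are close relatives, and Wnt7a lies on chromosome 6 from 91363981 to 91411363 and Wnt7b on chromosome 15 from 85535437 to 85582473 (GRCm38), each on the minus strand. Wnt7a had 0, 0.0475 and 0.0632 CPM in Normal replicates 1, 2 and 3, and 37.3, 15.7 and 31.5 CPM in the Yap-activated replicates. That is 4 counts over the Normal libraries together and 3453 over the Yap-activated ones. The ratio of these counts at equal depth was 745, with a 95% interval of 291 to 2736 that covers counting error only, and the fitted log2 fold change was 9.45 (SE 0.61, adjusted p = 2.00e-05). Wnt7b had 0.117, 0.356 and 0.0316 CPM in Normal and 53.1, 32.2 and 36.3 CPM in Yap-activated libraries (log2 fold change 7.77, SE 0.51, adjusted p = 2.26e-05). For each gene every Yap-activated library lay far above every Normal library. Normal replicate 2, the Normal library with the most Wnt7b, also had the most RNA of 7 squamous forestomach markers, 36.3 CPM in sum against 2.01 and 0.632 in the other Normal libraries. Without it the log2 fold change of Wnt7b was 9.0 (adjusted p = 3.75e-05). In the Yap-activated libraries that marker sum was between 54.6 and 80.1 CPM, with 1 of the 7 markers, Ivl, past the threshold and 5 of the 7 higher in every Yap-activated library than in any Normal one. Both antral markers also rose, Pdx1 by 3.30 and Gast by 2.06 on the log2 scale, and their sum was between 4.08 and 12.1 CPM in Normal and between 44.7 and 70.5 CPM in Yap-activated libraries. The part of squamous or antral cells in the rise of Wnt7a and Wnt7b was not tested. An antisense RNA, AU022754, overlaps Wnt7b, and no source used here states the strand setting of the counting.

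Wnt10a, a ligand known from skin and tooth development, had no count in any Normal library and 1.66, 2.39 and 2.06 CPM in the Yap-activated ones. The fitted log2 fold change was 9.31 (SE 0.70, adjusted p = 1.20e-04), a size with no Normal count behind it. Set against a floor of 3 counts over the Normal group, the Yap-activated mean of Wnt10a was 73.4-fold higher, a ratio with no test of its own. With counting error taken in, the 95% lower limit of the ratio was 60.4. Its relative Wnt10b, too low to be tested, also had no count in Normal and 0.203, 0.191 and 0.186 CPM in Yap-activated libraries. That is 6.97-fold higher on the same floor, with a 95% lower limit of 5.2. Without a filter on low counts Wnt10b passed (adjusted p = 0.00419). Wnt6 lies on the same strand of chromosome 1 as Wnt10a, 6193 bases before it. It had 0.146, 0.119 and 0.316 CPM in Normal and 0.237, 0.239 and 0.465 CPM in Yap-activated libraries, which overlap, and it did not pass (log2 fold change 0.75, adjusted p = 0.252).

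Wnt5a had 22.6, 15.4 and 22.7 CPM in Normal and 28.6, 34.9 and 44.5 CPM in Yap-activated libraries, with no overlap (log2 fold change 0.83, SE 0.21, adjusted p = 0.00979). Wnt9a rose from 2.17 ± 0.278 to 4.89 ± 1.56 CPM (SD, n = 3; log2 fold change 1.17, adjusted p = 0.0112). Its neighbour Wnt3a, whose gene starts back to back with it across 16175 bases on chromosome 11, was at or below 0.0713 CPM in every library.

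Wnt16 had 2.88, 1.90 and 1.71 CPM in Normal and 0.203, 0.119 and 0.186 CPM in Yap-activated libraries, a 12.6-fold fall (log2 fold change -3.66, SE 0.40, adjusted p = 1.46e-04). Wnt5b had 2.56, 2.07 and 2.66 CPM in Normal and 0.271, 0.262 and 0.670 CPM in Yap-activated libraries, and fell by 2.55 on the log2 scale (adjusted p = 0.0014). Without Yap-activated replicate 3, its highest Yap-activated library, the log2 fold change of Wnt5b was -3.16 (adjusted p = 4.26e-04). The coding gene Fbxl14 lies within Wnt5b on the other strand and had a log2 fold change of -0.30 (adjusted p = 0.0645), so reads of the 2 genes may be mixed. Wnt2b fell from 4.28 ± 0.551 to 1.62 ± 0.532 CPM (SD, n = 3; log2 fold change -1.40, adjusted p = 0.00573). Wnt16, Wnt5b and Wnt2b were each lower in every Yap-activated library than in any Normal library.

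Beside these falls, of 11 fibroblast markers 5 fell, 1 rose and 5 did not pass. Their sum was between 947.8 and 1401 CPM in Normal and between 451 and 735 CPM in Yap-activated libraries. Much of that difference was in Col1a2 (means of 287 and 96.0 CPM) and Col3a1 (348 and 108 CPM). Lum, Dpt and Fbln1 also fell, and Thy1 rose from 1.13 to 5.05 CPM. Col1a1, Dcn, Pdgfra, Pdgfrb and Postn overlapped between the groups and did not pass. Mesothelial markers summed to between 32.9 and 46.5 CPM in Normal and between 5.96 and 8.63 CPM in Yap-activated libraries, with 2 of 5 lower. Most of that sum in Normal was Gpm6a, which fell from a mean of 30.5 to 1.59 CPM. Muc16 fell from 2.71 to 1.02 CPM. Upk3b, Lrrn4 and Wt1 overlapped between the groups and did not pass (log2 fold changes 0.17, -0.70 and -0.34). The part of fibroblasts or mesothelial cells in the falls of these ligands was not tested.

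Wnt4 had 12.6, 11.9 and 9.01 CPM in Normal and 6.44, 7.56 and 9.78 CPM in Yap-activated libraries, and did not pass (log2 fold change -0.49, adjusted p = 0.0773). Wnt11 had 6.06, 7.77 and 6.13 CPM in Normal and 3.90, 4.20 and 5.60 CPM in Yap-activated libraries (log2 fold change -0.54, adjusted p = 0.0657). Each passed without Yap-activated replicate 3, with log2 fold changes of -0.66 for Wnt4 (adjusted p = 0.0269) and -0.71 for Wnt11 (adjusted p = 0.0254). With library totals alone as the scaling, Wnt4 was at 0.01. Wnt1, Wnt3, Wnt3a, Wnt8a, Wnt8b and Wnt9b were too low to be tested, with at most 0.126 CPM in any library.

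**Figure D1:**
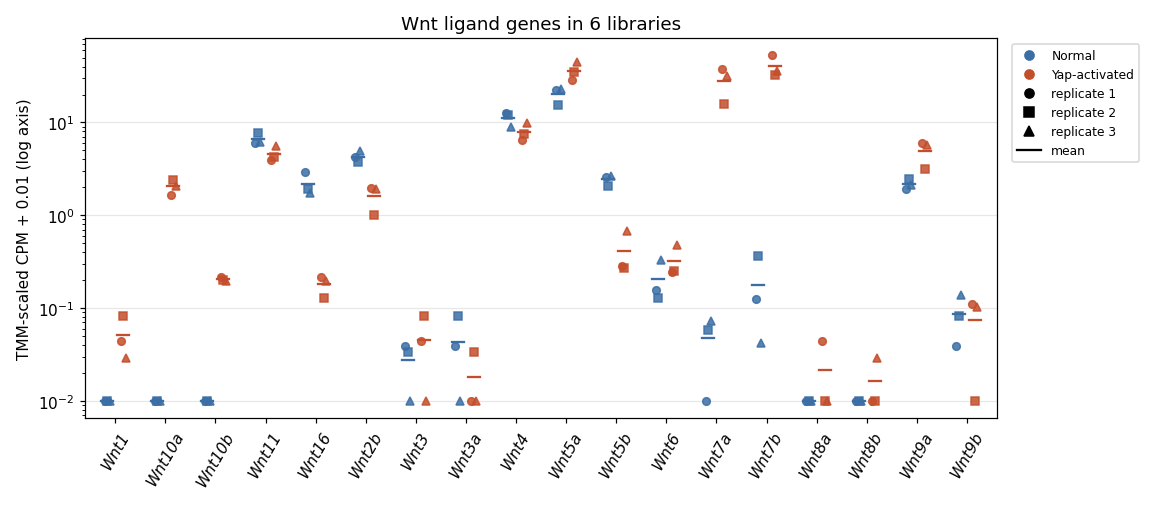
Level of each of the 18 Wnt ligand genes in each library, as TMM-scaled CPM plus 0.01 on a log axis; blue is Normal, orange is Yap-activated, symbols are replicates and bars are means. Wnt7a and Wnt7b stand between 15.7 and 53.1 CPM in the Yap-activated libraries and at or below 0.356 CPM in the Normal ones.

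Levels of different genes were compared per kilobase of exon. In Normal the 18 ligand genes reported summed to 10.1 ± 0.488 CPM per kb, led by Wnt4 with 26.3 ± 4.07% and Wnt5a with 25.5 ± 4.72% of that sum, which overlap, then Wnt11 with 16 ± 2.92% and Wnt2b with 10.1 ± 1.38% (SD, n = 3). In Yap-activated tissue the sum was 27.9 ± 5.76 CPM per kb, led by Wnt7a with 30.9 ± 6.90% and Wnt7b with 29.7 ± 4.81%, which also overlap, then Wnt5a with 17.0 ± 5.00% (SD, n = 3). Wnt7a and Wnt7b together held 0.223%, 0.901% and 0.266% of the ligand sum in the Normal libraries and 70.6%, 54.1% and 57.2% in the Yap-activated ones. The sum of the other 16 ligands was 10.1 ± 0.514 CPM per kb in Normal and 10.7 ± 1.94 CPM per kb in Yap-activated libraries (SD, n = 3), a difference smaller than the spread. That split was chosen after the levels were seen. These sums and shares are descriptions with no test.

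**Figure D2:**
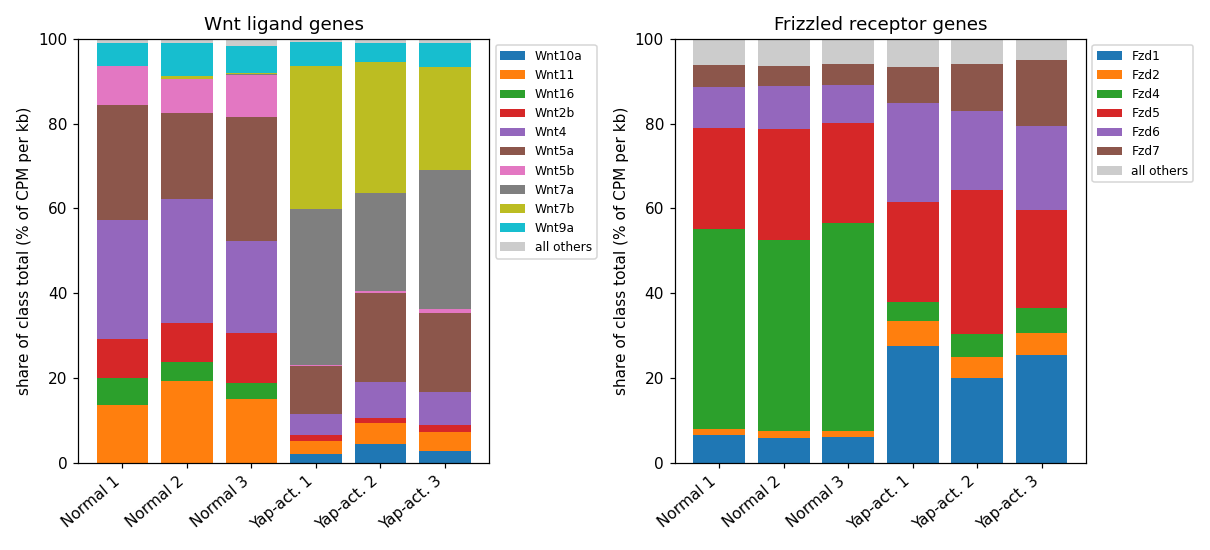
Share of the class total, in percent of CPM per kb of exon, for Wnt ligand genes (left) and Frizzled genes (right) in each of the 6 libraries; genes that reach 4% in no library are pooled as all others. Wnt7a and Wnt7b fill over 54% of each Yap-activated ligand bar, and Fzd4 goes from the largest Frizzled share in Normal to 5.18 ± 0.752% (SD, n = 3).

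Among the Frizzled receptors, Fzd4 fell 12-fold while Fzd1, Fzd2, Fzd6 and Fzd7 rose and Fzd3 fell. Of 9 tested, 4 rose, 2 fell and 3 did not pass, with a median log2 fold change of -0.28.

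Fzd4, a receptor of Wnts and of the unrelated ligand norrin that is well known in blood vessels, lies on chromosome 7 from 89404355 to 89413134 (GRCm38, plus strand). It had 164.8, 179 and 205 CPM in Normal and 9.69, 17.1 and 18.7 CPM in Yap-activated libraries (log2 fold change -3.59, SE 0.25, adjusted p = 2.51e-05). The lowest Normal library lay well above the highest Yap-activated one. Endothelial markers also fell, 7 of 8, at a median log2 fold change of -1.50. Their sum was between 194.9 and 212 CPM in Normal and between 45.9 and 79.5 CPM in Yap-activated libraries. The parietal and chief cell markers fell too, 5 of 5 and 3 of 3. The part of either in the fall of Fzd4 was not tested.

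Fzd1 had 14.3, 14.7 and 15.7 CPM in Normal and 38.3, 39.6 and 50.6 CPM in Yap-activated libraries (log2 fold change 1.53, SE 0.14, adjusted p = 5.41e-05). Fzd2 rose from 3.25 ± 0.473 to 8.42 ± 1.04 CPM (SD, n = 3; log2 fold change 1.37, adjusted p = 7.85e-04). Neither gene showed any overlap between the groups. Fzd6, which with Fzd3 takes part in planar cell polarity, rose from 26.8 ± 2.21 to 41.8 ± 4.18 CPM (SD, n = 3; log2 fold change 0.64, adjusted p = 0.00205). Fzd3 itself fell from 19.2 ± 1.74 to 11.4 ± 1.44 CPM (SD, n = 3; log2 fold change -0.75, adjusted p = 0.00285), a call lost with library totals alone (-0.26, adjusted p = 0.192).

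Fzd7, reported to carry Wnt signals in gastric epithelium, had 11.9, 12.4 and 14.2 CPM in Normal and 12.7, 24.1 and 33.6 CPM in Yap-activated libraries. Yap-activated replicate 1 lay within the Normal range, and the call was marginal (log2 fold change 0.88, adjusted p = 0.0487). It was lost when any 1 library other than Yap-activated replicate 1 was left out, with adjusted p-values of 0.0955 to 0.134, and the log2 fold change was 0.53 without Yap-activated replicate 3.

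Fzd5 had 86.2, 107 and 101 CPM in Normal and 53.9, 112 and 75.8 CPM in Yap-activated libraries, which overlap (log2 fold change -0.29, adjusted p = 0.352). It passed without Yap-activated replicate 2 (-0.60, adjusted p = 0.0209) and was at 0.20 with library totals alone. Fzd8, at 9.15 ± 1.20 and 7.54 ± 1.26 CPM (SD, n = 3; log2 fold change -0.28, adjusted p = 0.240), and Fzd9, at 1.10 ± 0.186 and 0.630 ± 0.0773 CPM (SD, n = 3; log2 fold change -0.81, adjusted p = 0.0534), did not pass. Fzd10 was too low to be tested, with at most 0.261 CPM.

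Per length, Fzd4 made up 47.0 ± 1.96% of the Frizzled sum in Normal and Fzd5 24.6 ± 1.46%, followed by Fzd6 with 9.63 ± 0.573% (SD, n = 3). In Yap-activated tissue Fzd5 with 26.9 ± 6.20%, Fzd1 with 24.3 ± 3.94% and Fzd6 with 20.6 ± 2.49% had overlapping spreads, and Fzd7 followed with 11.8 ± 3.58% (SD, n = 3). Within each Yap-activated library Fzd6 (23.4%, 18.6% and 19.9%) was below Fzd1 (27.6%, 19.9% and 25.4%) and below Fzd5 (23.6%, 34.0% and 23.0%). The order of Fzd5 and Fzd1 differed between libraries. The Frizzled sum was 57.8 ± 5.24 CPM per kb in Normal and 42.7 ± 8.33 CPM per kb in Yap-activated libraries (SD, n = 3), a ratio of 0.738 that turned to 1.04 with library totals alone. Without Fzd4, a split chosen after the values were seen, the sum was 27.6, 32.5 and 31.8 CPM per kb in Normal and 31.7, 44.9 and 44.8 CPM per kb in Yap-activated libraries, which overlap at Yap-activated replicate 1.

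The co-receptors and alternative receptors split into pairs: Lrp5 and Ror2 rose, while Lrp6 and Ror1 fell and Ryk did not pass. Lrp5 had 108, 120 and 109 CPM in Normal and 143, 219 and 221 CPM in Yap-activated libraries (log2 fold change 0.79, SE 0.17, adjusted p = 0.0055). Lrp6 had 104, 128 and 142 CPM in Normal and 79.8, 93.5 and 87.9 CPM in Yap-activated libraries (log2 fold change -0.52, SE 0.13, adjusted p = 0.0113), and with library totals alone it was at -0.03 (adjusted p = 0.873). The groups did not overlap for either gene. Per length the means were 11.5 and 9.13 CPM per kb for Lrp5 and Lrp6 in Normal, and 19.9 and 6.37 CPM per kb in Yap-activated tissue.

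Ror2, a receptor tyrosine kinase-like partner of Wnt5a, had 4.43, 5.94 and 4.14 CPM in Normal and 17.4, 17.2 and 16 CPM in Yap-activated libraries (log2 fold change 1.80, SE 0.18, adjusted p = 9.10e-05). It lies on chromosome 13 from 53109312 to 53286124 (GRCm38, minus strand). Ror1 had 2.71, 3.35 and 4.33 CPM in Normal and 1.59, 1.26 and 1.80 CPM in Yap-activated libraries (log2 fold change -1.15, SE 0.29, adjusted p = 0.00973), a call lost with library totals alone (-0.67, adjusted p = 0.0828). The groups did not overlap for Ror1 or Ror2. Ryk was at 50.1 ± 2.98 and 54.4 ± 7.14 CPM (SD, n = 3; log2 fold change 0.12, adjusted p = 0.405), and passed with library totals alone (0.61, adjusted p = 0.00282). The sum of the 5 genes was 33.5 ± 2.53 CPM per kb in Normal and 42.6 ± 3.35 CPM per kb in Yap-activated libraries (SD, n = 3).

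**Figure D3:**
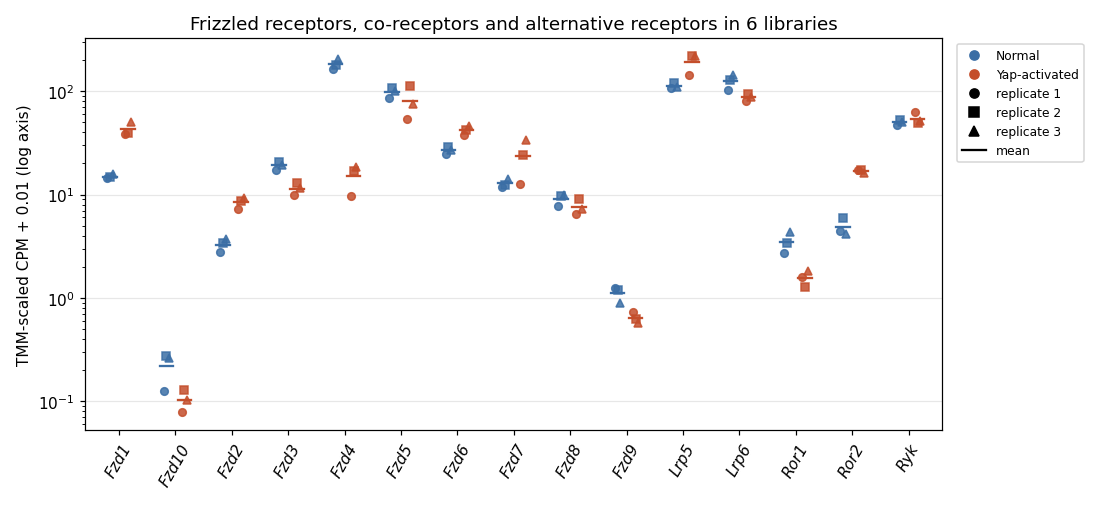
Level of the 10 Frizzled receptor genes and of Lrp5, Lrp6, Ror1, Ror2 and Ryk in each library, as TMM-scaled CPM plus 0.01 on a log axis; blue is Normal, orange is Yap-activated, symbols are replicates and bars are means. Fzd4 lies at 164.8 CPM or more in Normal and at 18.7 CPM or less in Yap-activated libraries, while Fzd5 overlaps between the groups.

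Among the secreted antagonists, Dkk2, Wif1 and Sfrp2 rose, Sfrp5 fell, and Sfrp1, Dkk3 and Frzb did not pass, out of 7 tested. Their median log2 fold change was 0.50.

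Dkk2, which acts on Lrp5 and Lrp6, had 0.291, 0.214 and 0.158 CPM in Normal and 12.5, 5.89 and 9.86 CPM in Yap-activated libraries (log2 fold change 5.39, SE 0.40, adjusted p = 2.36e-05). It lies on chromosome 3 from 132085292 to 132180304 (GRCm38, plus strand). Wif1 had 0.146, 0.166 and 0.221 CPM in Normal and 1.53, 1.86 and 1.92 CPM in Yap-activated libraries (log2 fold change 3.30, SE 0.35, adjusted p = 1.22e-04). Sfrp2 rose from 0.574 ± 0.0854 to 1.81 ± 0.480 CPM (SD, n = 3; log2 fold change 1.66, adjusted p = 0.00348). All Yap-activated libraries were above all Normal ones for Dkk2, Wif1 and Sfrp2, although Wif1 and Sfrp2 stayed low.

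Sfrp5 had 1.49, 1.76 and 1.42 CPM in Normal and 0.305, 0.262 and 0.223 CPM in Yap-activated libraries, a 5.92-fold fall (log2 fold change -2.57, SE 0.33, adjusted p = 3.26e-04). Sfrp1, the highest antagonist per length in Normal, had 19.5, 13.2 and 16.9 CPM there and 21.4, 11.3 and 37.4 CPM in Yap-activated libraries (log2 fold change 0.50, adjusted p = 0.320). Its Yap-activated values spread over the Normal range, and it was at 0.83 without Yap-activated replicate 2 (adjusted p = 0.0328) and at -0.02 without Yap-activated replicate 3. The fibroblast marker sum was 691, 451 and 735 CPM in these Yap-activated replicates, lowest where Sfrp1 was lowest and highest where it was highest. Other marker sums had the same order, 336, 164.6 and 699 CPM for 8 macrophage and leukocyte markers and 169, 106 and 247 CPM for 7 smooth muscle markers. The endothelial, mesothelial and parietal sums had it too. The epithelial, chief cell, glia and neuron, lymphoid, squamous and antral sums did not. An order over 3 libraries cannot tell the lists that share it apart. The leukocyte sum was between 155 and 164.9 CPM in Normal, a range that holds Yap-activated replicate 2. Of its 8 markers, 3 (Ptprc, Csf1r and Lyz2) were called higher and 5 did not pass, with Csf1r overlapping between the groups. That is a called share of 37.5%, beside 59.5% of all genes tested. C1qa was at 16.5, 16.2 and 86.2 CPM in the Yap-activated replicates and did not pass. The part of any of these cells in the spread was not tested.

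Dkk3, a divergent member of its family, was at 9.50 ± 1.67 and 8.97 ± 3.50 CPM (log2 fold change -0.08, adjusted p = 0.827), and Frzb at 0.785 ± 0.166 and 0.821 ± 0.0862 CPM (log2 fold change 0.07, adjusted p = 0.867; SD, n = 3). Dkk1 had no count in any library, which allows up to 0.0278 CPM in the Normal group on a floor of 3 counts. Dkk4 reached at most 0.0339 CPM and Sfrp4 at most 0.573 CPM, and neither was tested. Per length, Sfrp1 with 46.4 ± 3.08% and Dkk3 with 34.7 ± 1.07% led the antagonist sum in Normal (SD, n = 3). In Yap-activated tissue Sfrp1 held 40.2 ± 9.60%, and Dkk3 with 21.5 ± 5.15% and Dkk2 with 20.8 ± 6.91% did not differ beyond their spread (SD, n = 3). The antagonist sum was 8.12 ± 1.20 CPM per kb in Normal and 12.6 ± 4.44 CPM per kb in Yap-activated libraries (SD, n = 3).

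**Figure D4:**
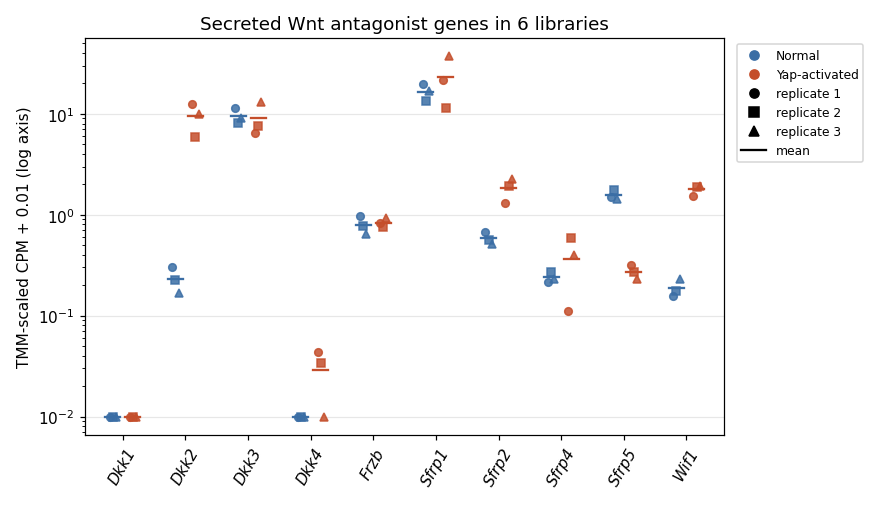
Level of the 10 secreted antagonist genes in each library, as TMM-scaled CPM plus 0.01 on a log axis; blue is Normal, orange is Yap-activated, symbols are replicates and bars are means. Dkk2 moves from at most 0.291 CPM in Normal to at least 5.89 CPM in Yap-activated libraries, and Dkk1 is at 0 in all 6.

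**Figure D5:**
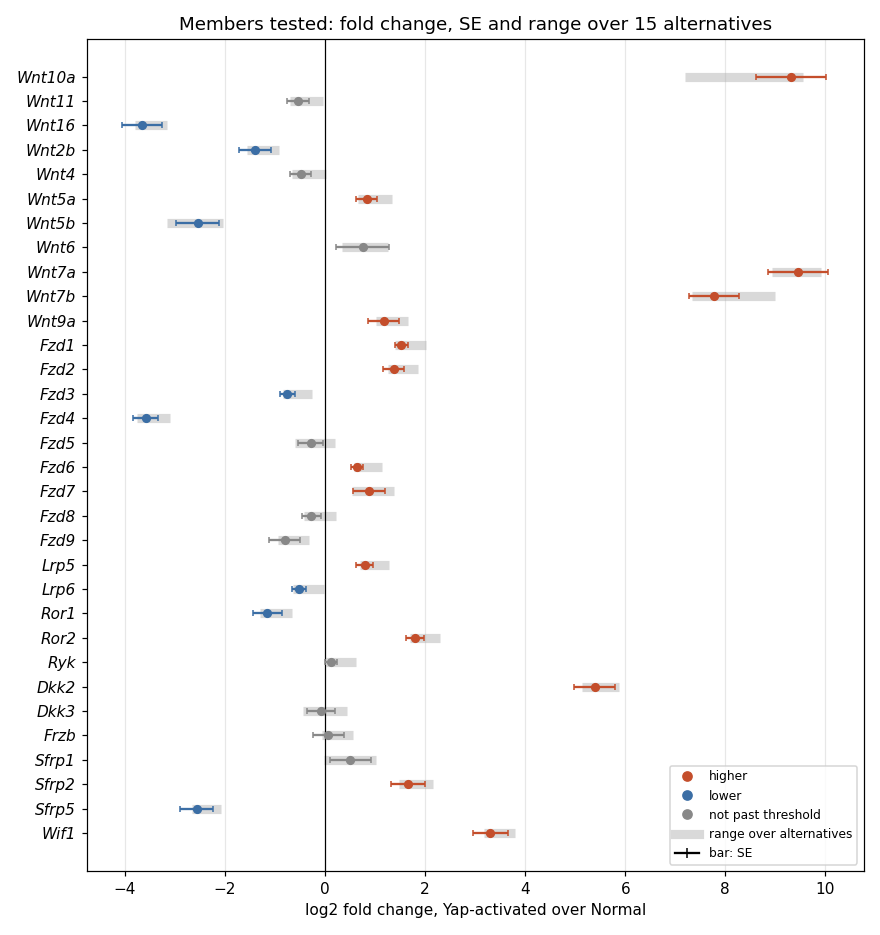
Log2 fold change of Yap-activated over Normal for the 32 members tested, with SE bars, on grey bars that span the values of 15 alternative analyses; orange is higher, blue is lower and grey points did not pass the threshold of 0.05. The grey bars of Dkk3, Frzb, Fzd5, Fzd8, Sfrp1 and Wnt4 cross 0, and none of those 6 passed the threshold.

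Other genes of the pathway were taken from 5 lists, 94 genes found in the table and 90 tested, of which 30 rose and 29 fell (65.6%, beside 59.5% of all genes). Of 12 genes of ligand release and handling outside the cell, 8 rose and 2 fell, with a median log2 fold change of 0.80. Porcn, the enzyme that attaches the lipid to Wnt proteins, had a log2 fold change of 2.24, from 23.6 to 111 CPM. Gpc1, a glypican, was at 2.47, and Notum, which removes the lipid, at 2.25 but from only 0.213 CPM (adjusted p = 0.0178). Leaving out Normal replicate 1 or 3 ended the Notum call (adjusted p = 0.0704 and 0.0674), and its log2 fold change was 3.29 without Normal replicate 2. Gpc3, another glypican, fell by 2.43, and Mesd, a chaperone of Lrp5 and Lrp6, by 0.39, a call that leaving out Normal replicate 2 or 3 ended (adjusted p = 0.0854 and 0.0679), and Mesd was at 0.10 with library totals alone. Sdc1, a syndecan, was the highest of the list per length, at 59.4 and 122 CPM per kb (log2 fold change 1.03).

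Of 16 tested genes of the R-spondin axis and other membrane regulators, 5 rose and 7 fell, with a median log2 fold change of -0.11. Kremen2, a Dkk-binding membrane protein, was at 2.68, Ptk7, a receptor-like pseudokinase, at 1.49, and Rspo3, a ligand that strengthens Wnt signals, at 2.15 from a low level (0.338 to 1.48 CPM, adjusted p = 0.0202). Leaving out Normal replicate 2 (adjusted p = 0.0795) or replicate 3 of the Yap-activated group (0.0545) ended the Rspo3 call, and its log2 fold change was 3.03 without Normal replicate 3. Sostdc1, a secreted inhibitor, fell by 5.64, from 2.89 to 0.0520 CPM, with only 1, 2 and 4 counts in the Yap-activated replicates. The R-spondin receptor gene Lgr5 and the Lrp family gene Lrp4 fell by 1.15 and 1.69. Lgr4, the highest of the list per length, fell by 0.60 on the log2 scale, from 35.7 to 23.5 CPM per kb, a call lost with library totals alone (-0.11). Adgra2 and Reck, membrane proteins known to serve Wnt7a and Wnt7b in brain vessels and named here after their values were seen, were at -1.10 (adjusted p = 0.011) and -0.10 (adjusted p = 0.779).

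Of 22 genes of the cytoplasmic beta-catenin route, 7 rose, 3 fell and 12 did not pass, a called share of 45.5%. Ctnnb1, which encodes beta-catenin, was the highest of the list per length and rose by 0.81, from 343 to 604 CPM. The casein kinase genes Csnk1e and Csnk1a1 were at 2.21 and 0.60. Amer1, Btrc and Apc fell by 1.44, 0.66 and 0.29. Btrc did not pass with library totals alone (adjusted p = 0.323), and the Apc call (adjusted p = 0.0438) was lost when any 1 library other than Normal replicate 1 was left out (adjusted p from 0.0661 to 0.146). It was also lost with DESeq2 size factors (adjusted p = 0.0557), upper-quartile scaling (0.068) and no filter on low counts (0.0561), and Apc was at 0.20 with library totals alone.

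Of 17 nuclear partner genes, 5 rose and 7 fell. Tcf7 rose by 1.57, Lef1 by 0.96 and Bcl9 by 0.89, and Tle2, a co-repressor, fell by 1.81, Pygo1 by 1.60 and Tcf7l1 by 1.06. Lef1 was at 0.375 and 0.727 CPM, and its call (adjusted p = 0.040) was lost when any 1 library other than Yap-activated replicate 2 was left out (adjusted p from 0.0569 to 0.150), with DESeq2 (0.129) and with no filter on low counts (0.0717). The Pygo1 call ended with library totals alone (-1.10, adjusted p = 0.0747) and when Normal replicate 1 or 3 or Yap-activated replicate 1 was left out (adjusted p from 0.0516 to 0.0839). Ctbp1, a co-repressor and the highest of the list per length, fell by 0.39 but was at 0.10 with library totals alone, and its call ended when Normal replicate 2 or 3 or Yap-activated replicate 1 or 3 was left out (adjusted p from 0.0579 to 0.0846).

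Of 23 genes of the planar polarity and calcium routes, 5 rose and 10 fell, with a median log2 fold change of -0.23. Vangl1 and Vangl2, core planar polarity genes, were at 1.57 and 1.28, and Nfatc2, a calcium-regulated transcription factor, at 1.53. Prickle4 fell by 4.88 on the log2 scale, from 1.56 to 0.0560 CPM, and was at -5.48 without Yap-activated replicate 1. It had only 3, 2 and 1 counts in the Yap-activated replicates, so the size of its fall is uncertain. Prickle1 fell by 1.54 and Celsr3 by 1.30. The Celsr3 call was lost with library totals alone (-0.81, adjusted p = 0.0593). Rac1, the highest of the list per length, was at 0.15 and did not pass.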

How the data were processed

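The authors deposited 1 table of raw read counts per gene symbol for 6 libraries, whole numbers with no normalization. Per the labels' protocols, libraries were made with a stranded mRNA kit and sequenced as paired 50 bp reads. Per the submitters' processing notes, the tools were STAR 2.4.2a and DESeq2, with GRCm38 and mm10 named as genome builds. No source used here states how reads were assigned to genes, with which annotation or strand setting, so reads of overlapping genes or close paralogs can sit in a count.

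All tests used edgeR 4.0.16 under R 4.3.3. The filter was filterByExpr (minimum count 10), which left 14600 of 21526 genes. These were scaled by TMM and tested over all 6 libraries with a robust quasi-likelihood F-test with no other term. Each SE was derived from the fitted log2 fold change and its F statistic (size of the change over root F). The test was run on simulated counts drawn from its own fitted dispersions, with few genes changed and as many up as down. In the data 59.5% of genes were called, so that simulation cannot check the TMM scaling used here. Coordinates and merged exon lengths come from GENCODE M21 (GRCm38), and promoter windows from RefSeq (GRCm38.p6).

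Every member was named, those tested with their values. Of the other pathway lists the text names the 3 largest rises and falls past the threshold and the highest gene per length. The members, lists and tests were chosen with earlier results of these data known. The alternatives were other scalings, filters and dispersions, DESeq2 1.42.0, limma voom (limma 3.58.1), a replicate block and leaving out each library. 1 Wnt gene is not reported here.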

Additional observations from a re-analysis of the deposited data

How the results depend on the processing

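Over 15 alternatives, 18 of the 22 members called kept their direction and call in all of them that gave a value. The exceptions were Fzd7, lost in 7 alternatives (adjusted p = 0.0627 with no filter on low counts, 0.0664 with limma voom and up to 0.134 with a library left out), and Fzd3, Lrp6 and Ror1, lost with library totals alone. With any 1 library left out, 13 to 14 members were higher and 8 to 10 lower.

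Library totals alone moved the median log2 fold change of all genes from 0.01 to 0.50 and the share of calls that were higher from 50% to 76.6%. With them 7522 genes were higher and 2299 lower in place of 4345 and 4337, 5 members were lower in place of 8, and 51 other pathway genes were higher and 11 lower in place of 30 and 29. The ratios of summed level, Yap-activated over Normal, became 3.88 for ligands (2.76 with TMM), 1.04 for Frizzled receptors (0.738), 1.79 for co-receptors (1.27) and 2.20 for antagonists (1.55), by the construction of that scaling.

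Members that changed sign had not passed the threshold. With library totals alone they were Dkk3 (0.43), Fzd5 (0.20), Fzd8 (0.21) and Wnt4 (0.010), and the called pathway genes Apc (0.20), Ctbp1 (0.10) and Mesd (0.10) also did. With 1 library left out, Dkk3 ranged from -0.44 to 0.12 (above 0 without Normal replicate 1 or Yap-activated replicate 1 or 2), Frzb from -0.069 to 0.23 (below 0 without Normal or Yap-activated replicate 3) and Sfrp1 from -0.015 to 0.83 (below 0 without Yap-activated replicate 3). The causes were not tested. Fzd9 passed with non-robust dispersions (adjusted p = 0.0481) and limma voom (adjusted p = 0.0493).

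Replicate numbers are shared between the groups, but same-numbered libraries deviated together only weakly (correlations of 0.074, 0.038 and 0.080 over genes). Each library correlated best with its own number, but for replicate 2 the value of 0.038 was barely the highest. Normal replicate 2 was at 0.036 with Yap-activated replicate 1, and Yap-activated replicate 2 at 0.037 with Normal replicate 3. Any hint of pairing is weak, and it comes from the data and not from the design. With the replicate block 4239 genes were higher and 4322 lower, with 14 members higher and 8 lower, and 29 and 28 other pathway genes. It changed no member's call, and of the pathway genes named only that of Lef1 (adjusted p = 0.0618). Low counts limit Wnt6, Wnt10b, Frzb and the untested members, and the Yap-activated values of the pathway genes Prickle4 and Sostdc1.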
